A study of Mus musculus with 6 samples.

Results

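Bmp7, Smad1, Smad3 and Smad7, 4 genes of the BMP and SMAD pathway, were nearest to 17 of the 6756 cytosines that the authors' deposited tables list as differently methylated in blood progenitors without Tet1. The sites were chosen by gene name alone, from the list of hypermethylated and the list of hypomethylated cytosines, and the gene name means the nearest annotated transcription start. Bmp7 had 8 sites, Smad1 had 1, Smad3 had 5 and Smad7 had 3. The groups were 3 Tet1 KO samples and 3 WT samples, all of LSK cells sorted from bone marrow of mice 6 months old, with the strain written as CD57BL/6. This fraction, negative for lineage markers and positive for Sca-1 and Kit, holds the haematopoietic stem and progenitor cells. Tet1 encodes a dioxygenase that oxidises 5-methylcytosine. How the Tet1 allele was deleted, whether in all cells or in blood alone, and whether each sample was a separate mouse, the labels do not say. The assay was enhanced reduced representation bisulfite sequencing, which reads mainly CpG-rich fragments and reads 5-methylcytosine and 5-hydroxymethylcytosine alike.

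Each listed cytosine carries a single value in the authors' deposited tables, the methylation of Tet1 KO minus that of WT cells in percentage points (hereafter points). Every listed cytosine differs by at least 25 points in either direction. Whether a further rule decided the listing, the sources used here do not say. There is no value per sample, so no spread between replicates, coverage or p-value stands behind the differences given here, and the depth is unknown. The direction was read from the list names and the signs. The members were picked from these lists, so their direction, size and number are described without a test. Tet1 itself was nearest to 0 listed sites, and methylation lists do not show a deletion, so neither the genotype nor the LSK label was checked against markers here.

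Bone morphogenetic proteins are secreted ligands of the TGF-β family that bind paired serine/threonine kinase receptors. The receptors phosphorylate activating SMAD proteins, Smad1 on the BMP arm and Smad3 on the TGF-β and activin arm, which join Smad4 and act on genes in the nucleus. Smad7 is an inhibitory SMAD that binds active receptors and brings ubiquitin ligases to them. TGF-β signalling is known to hold haematopoietic stem cells in quiescence, and BMP signalling is known for its part in the formation of blood in the embryo.

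The 4 members had no listed promoter site, and sequences around 2 of the starts are shown for their CpG content. RefSeq promoter windows (build GRCm38.p6, 250 bases before to 50 bases after the start) were matched for Smad1 and Smad3 alone. CpG dinucleotides, the sequence that is methylated, are in capitals, and both windows are on the minus strand, at chr8:79399379-79399678 and chr9:63757945-63758244.
Smad1: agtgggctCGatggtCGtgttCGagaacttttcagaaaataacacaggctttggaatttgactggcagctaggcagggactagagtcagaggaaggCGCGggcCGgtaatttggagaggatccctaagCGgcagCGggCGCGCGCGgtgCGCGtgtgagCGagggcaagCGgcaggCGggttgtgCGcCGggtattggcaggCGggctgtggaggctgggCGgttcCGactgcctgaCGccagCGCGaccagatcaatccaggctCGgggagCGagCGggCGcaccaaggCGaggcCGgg
Smad3: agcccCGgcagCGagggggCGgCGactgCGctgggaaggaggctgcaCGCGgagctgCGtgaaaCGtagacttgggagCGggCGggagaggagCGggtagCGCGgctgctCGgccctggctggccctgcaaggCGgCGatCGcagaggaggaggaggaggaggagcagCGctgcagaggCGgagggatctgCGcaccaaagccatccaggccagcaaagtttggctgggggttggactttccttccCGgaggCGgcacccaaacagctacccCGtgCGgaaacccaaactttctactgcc
The Smad1 window held 31 CpGs and the Smad3 window 25, where the median of all 32851 windows was 7. CCGG, the site cut by MspI, the enzyme usual for this kind of assay, occurred 3 times in the Smad1 window and 2 times in the Smad3 window, and 52.8% of all windows held it at least once (the motif reads the same on both strands). Both windows were thus CpG-rich and held the cutting site, and the nearest listed cytosines lay 108890 bp from the Smad1 start and 119217 bp from the Smad3 start in the authors' deposited tables (mm9). A cytosine that was read and not listed, for whatever reason, cannot be told apart here from a cytosine that was not read.

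Most of the 17 sites were more methylated in Tet1 KO cells: 15 were hypermethylated and 2 were hypomethylated. Of all listed sites, 92.8% were hypermethylated and 7.19% hypomethylated, so a split of 15 to 2 is near the background of the lists. By role, all 8 sites of the ligand Bmp7 and all 5 of the activating Smad3 were higher in Tet1 KO cells. The single site of the other activating SMAD, Smad1, was lower. The inhibitory Smad7 had sites in both directions, 2 higher and 1 lower, as did 108 of the 3344 listed genes (3.23%).

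**Figure D1:**
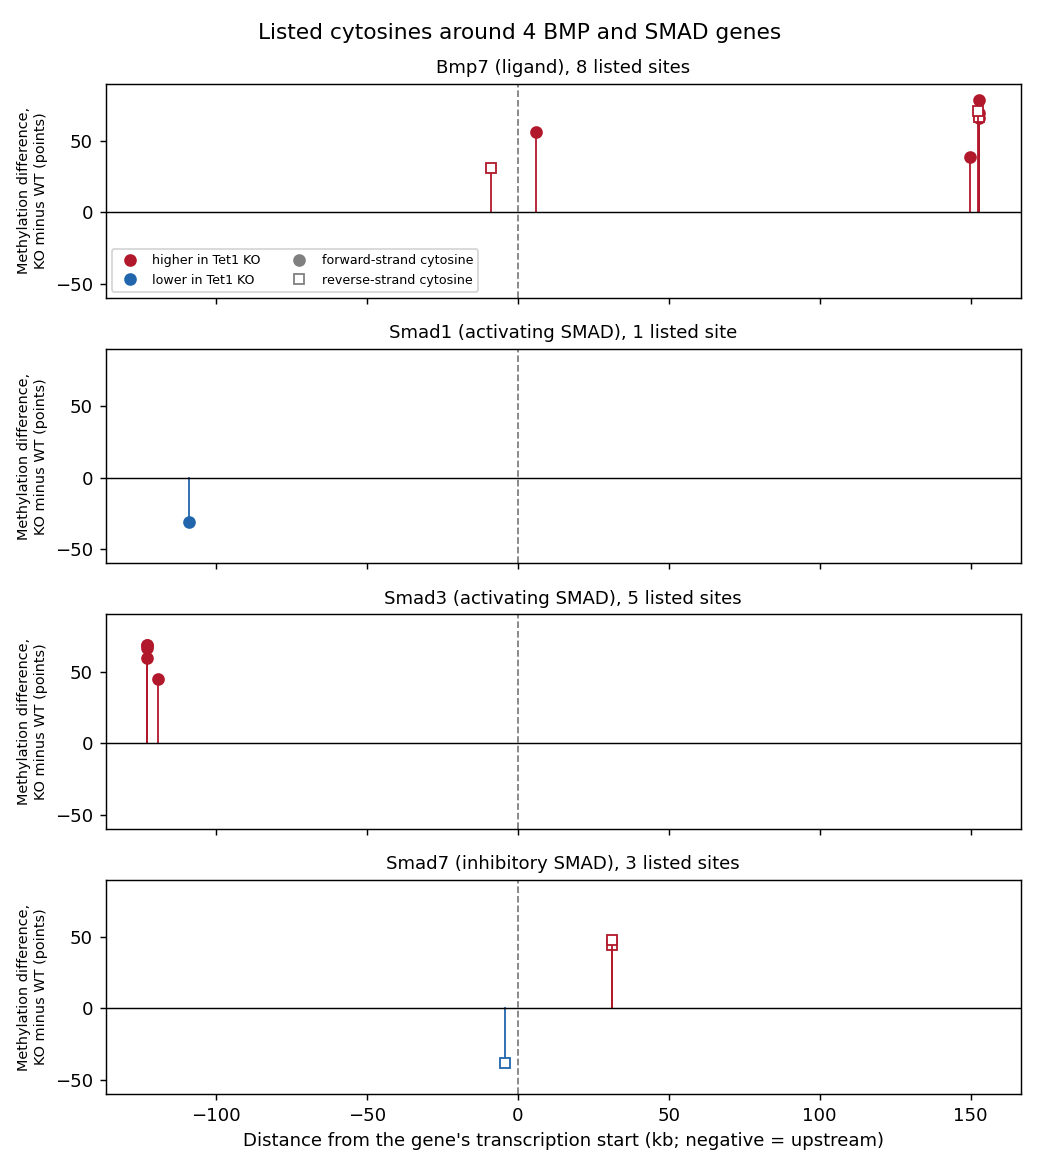
Methylation difference (KO minus WT, points; vertical axis) of each listed cytosine against its distance from the gene's transcription start (kb, negative upstream; horizontal axis), with a panel for each gene; circles are forward-strand and squares reverse-strand cytosines. Bmp7 has 6 of its 8 sites 149795 to 152755 bp downstream, all 5 Smad3 sites lie 119217 to 122791 bp upstream, and Smad7 has its lower site upstream and its 2 higher sites downstream of the start.

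The ligand gene Bmp7 carried its largest differences far from its start, beyond the gene. A group of 5 sites, at chromosome 2, 172613039 to 172613204 (mm9), lay within 165 bp of each other, in intergenic sequence 152590 to 152755 bp downstream of the start. Their differences in the authors' deposited table, in order of position, were 69.4, 65.8, 78.5, 66.9 and 70.8 points. All 5 exceeded the third quartile of the hypermethylated list, 51.3 points. A difference of 78.5 points can only arise if the cytosine was at least 78.5% methylated in Tet1 KO cells and at most 21.5% methylated in WT cells. A sixth site, 2795 bp further along at position 172615999, differed by 38.8 points in the authors' deposited table.

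The other 2 Bmp7 sites lay on either side of the start. The site at position 172759934, in intron 1 of 6 and 5860 bp downstream of the start, differed by 55.9 points in the authors' deposited table. The site at 172774680, 8886 bp upstream in a SINE repeat of the MIR family, differed by 30.6 points, the smallest of the 15 hypermethylated values. The gene body and the upstream side of Bmp7 thus had 1 listed cytosine each, and the 4 places were 2795, 143935 and 14746 bp apart. The distal sites face Tfap2c, a transcription factor gene that is the next protein-coding gene on that side in GRCm38.p6: the farthest site of the cluster lay 152755 bp from the Bmp7 start, against 236548 bp from the Tfap2c start. Tfap2c had 5 listed sites of its own, all higher in Tet1 KO cells, with differences of 26.0 to 42.3 points in the authors' deposited table. The nearest of them was 49934 bp from the Bmp7 cluster, and it differed by 26.7 points.

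Smad3, the activating SMAD of the TGF-β and activin arm, had sites upstream alone. Of its 5 sites, 4 fell on the forward strand of chromosome 9 between 63728546 and 63728592 (mm9), a span of 46 bp that lies 122745 to 122791 bp upstream of the start. In order of position they differed by 68.6, 68.4, 66.2 and 59.3 points in the authors' deposited table. At the first of them the cytosine was therefore at least 68.6% methylated in Tet1 KO cells and at most 31.4% in WT cells. The fifth site, 3528 bp closer to the gene at position 63725018, differed by 45.2 points in the authors' deposited table, less than each site of the cluster. All 5 were annotated as intergenic.

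The Smad3 cluster lies on the side of the inhibitory SMAD gene Smad6, which is the next protein-coding gene after Smad3 in that direction in GRCm38.p6. Smad6 was nearest to 0 listed sites. No other gene had a hypermethylated site within 500000 bp of the Smad3 sites. The nearest other listed cytosine, intronic and assigned to 2300009A05Rik, was 386453 bp away and lower in Tet1 KO cells, at -26.7 points in the authors' deposited table.

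Smad1, the activating SMAD of the BMP arm, had a single listed site, and it was lower in Tet1 KO cells. It lay at chromosome 8, 82032257 (mm9), on the forward strand in intergenic sequence 108890 bp upstream of the start. It differed by -30.9 points in the authors' deposited table, so the cytosine was at most 69.1% methylated in Tet1 KO cells and at least 30.9% methylated in WT cells. It ranked 317 by size among the 486 hypomethylated sites. The nearest other listed sites belonged to 1700011L22Rik, 298498 bp away, and were higher in Tet1 KO cells. A single hypomethylated cytosine with no hypermethylated one was the pattern of 311 of the 3344 listed genes.

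Smad7, the inhibitory SMAD, was the member with sites in both directions, and they lay on opposite sides of its start. The lower site, at chromosome 18, 75522604 (mm9), was 4415 bp upstream and differed by -38.2 points in the authors' deposited table. That cytosine was the listed site closest to the start of any of the 4 genes. The 2 higher sites, at 75558136 and 75558147, were 31117 and 31128 bp downstream, in sequence annotated as intergenic, and differed by 44.7 and 48.0 points in the authors' deposited table. All 3 were reverse-strand cytosines, and 35532 bp separated the lower site from the first higher one. The 1 listed cytosine upstream and the 2 downstream, 11 bp apart, thus differed in opposite directions between Tet1 KO and WT cells. Methylation of the wider sequence on either side is not known from listed sites. The nearest other listed site on that chromosome, intronic and assigned to Dym, was 315686 bp away and higher in Tet1 KO cells, at 53.8 points in the authors' deposited table.

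**Figure D2:**
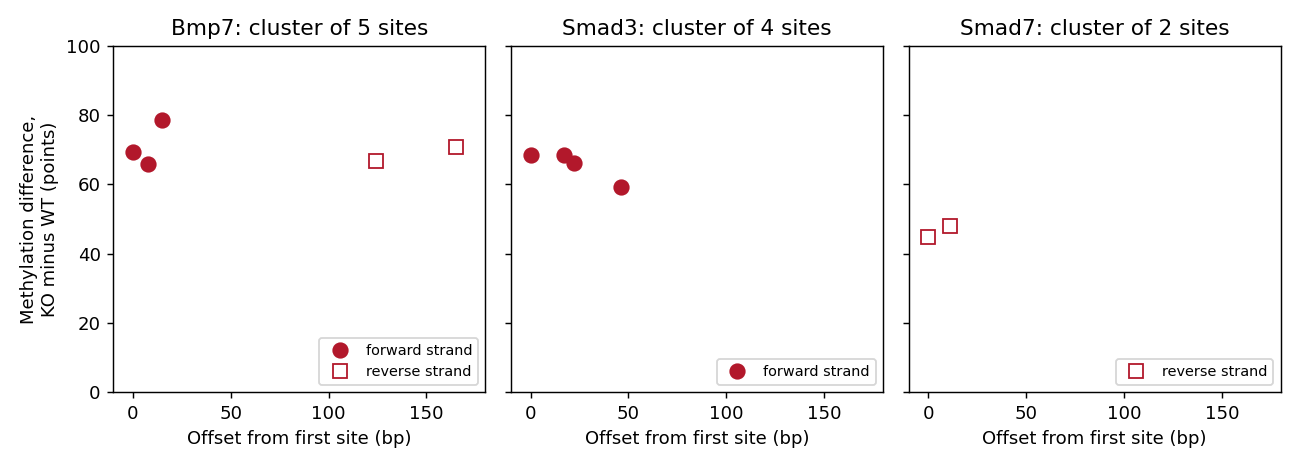
Methylation difference (KO minus WT, points; vertical axis) against offset from the first site of the cluster (bp; horizontal axis) for the 3 clusters that hold at least 2 sites. The Bmp7 cluster holds forward-strand and reverse-strand sites between 65.8 and 78.5 points, the 4 Smad3 sites fall on the forward strand within 46 bp, and the 2 Smad7 sites on the reverse strand within 11 bp.

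When neighbouring sites with the same sign and a gap under 1000 bp were joined, there were 9 clusters, 7 hypermethylated and 2 hypomethylated. Bmp7 had 4 of them, Smad3 and Smad7 had 2 each, and Smad1 had 1. Clusters of at least 2 sites numbered 3, a single one each at Bmp7, Smad3 and Smad7, and both hypomethylated clusters were single cytosines. Over all listed sites, 31.8% of the hypermethylated and 3.33% of the hypomethylated clusters held at least 2 sites. Of the 15 hypermethylated sites of the members, 11 (73.3%) were in such clusters, where 58.8% of all hypermethylated sites were. These 11 had a median difference of 66.9 points and the 4 single sites a median of 42.0 points in the authors' deposited table. Over all hypermethylated sites the medians were 44.2 points for clustered and 37.1 points for single sites, in the same order.

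Close cytosines on the same strand can be read on the same molecules, so a cluster is not a set of independent measurements. The reads were 50 bases long and single-ended, per the labels. Counting sites of the same strand within 50 bases once, the 17 sites came from 10 places: 5 at Bmp7, 2 at Smad3, 2 at Smad7 and 1 at Smad1. The Bmp7 cluster was the only one of the 3 seen on both strands. Its 3 forward-strand sites averaged 71.2 points and its 2 reverse-strand sites 68.8 points in the authors' deposited table, so reads of either strand gave a like difference there. The 4 Smad3 sites and the 2 Smad7 sites could each lie on a single read. The cytosine of the same CpG on the opposite strand was listed for 0 of the 17 sites, as for most listed sites (1.69% of all 6756 had it listed).

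**Figure D3:**
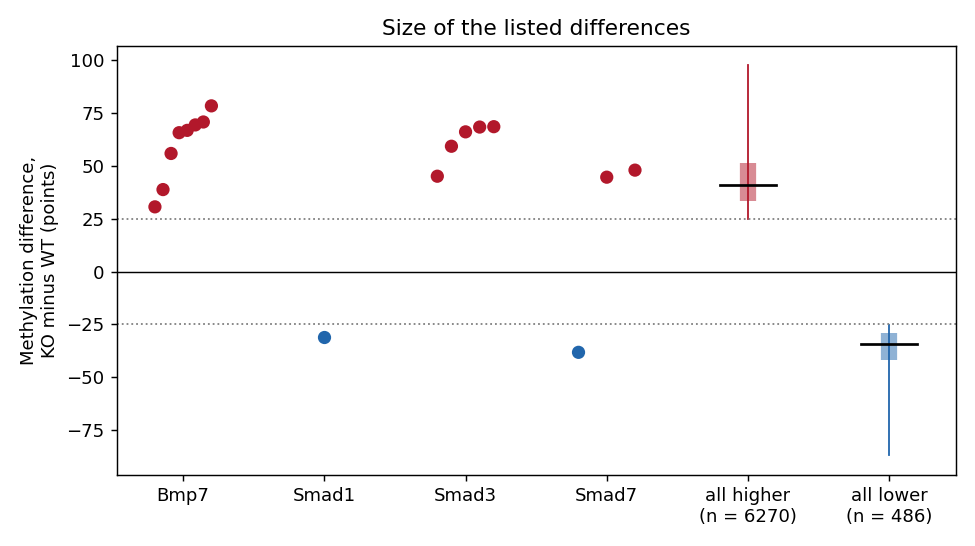
Methylation difference (KO minus WT, points; vertical axis) of each listed cytosine by gene, arranged by size within a gene, beside the range (thin line), quartiles (thick line) and median (black bar) of the 6270 hypermethylated and 486 hypomethylated sites; dotted lines mark 25 points. The highest Bmp7 and Smad3 sites, at 78.5 and 68.6 points, lie above the upper quartile of the hypermethylated list, and the 2 lower sites lie near the median of the hypomethylated list.

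The distal clusters of Bmp7 and Smad3 held differences of 59.3 to 78.5 points, and the other 6 hypermethylated sites of the members held 30.6 to 55.9 points. The median of the 15 sites was 65.8 points, against 41.1 points over all hypermethylated sites in the authors' deposited table. Counted by cluster, the median of the 7 cluster means was 46.4 points, against 39.3 points over all 3786 hypermethylated clusters. Of the 15, 8 reached 60 points, 5 at Bmp7 and 3 at Smad3, where 12.3% of all hypermethylated sites did. These 8 sites are from the Bmp7 and Smad3 clusters alone, so they stand for 3 places on a strand and not for 8. The mean difference over all listed sites was 59.6 points at Bmp7 and 61.5 points at Smad3. Among the 258 genes with at least 5 hypermethylated sites, the mean of Smad3 ranked 24 and that of Bmp7 ranked 28. These means weigh each cytosine alike, also those that can share reads. By cluster the means were 48.9 points at Bmp7 and 55.4 points at Smad3, and these were not ranked. The values nearest to the listing threshold were 30.6 points at Bmp7 and -30.9 points at Smad1, and values under 25 points were not used here.

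Many of the sites were distant from their start. Of the 17 sites, 12 lay at least 100000 bp from the start, 6 at Bmp7, 5 at Smad3 and 1 at Smad1, where 10.8% of all listed sites did. These 12 sites made 5 of the 9 clusters. Intergenic sequence held 16 of the 17 sites, where it held 36.7% of all listed sites, and the exception was the intronic Bmp7 site. Promoters held 0 of the 17 sites, where they held 10.7% of all listed sites, and annotated CpG islands held 0, where they held 4.25%. These shares were not tested. The nearest-gene rule alone ties a distant site to its gene, and no expression value was used here.

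By number of sites and mean difference, the genes most like each member were chosen by the smallest gap in mean difference among genes with the same counts in both directions. Of 35 other genes with 8 hypermethylated sites alone, Dlg2 and Krt86 were nearest to Bmp7, with means of 61.7 and 62.0 points. Of 68 other genes with 5, Cacng4 and Cblc were nearest to Smad3, each with a mean of 61.6 points. For the single hypomethylated site of Smad1 they were Lsm11 and Gm13749, at -30.8 and -31.0 points. Smad7, with a mean of 18.2 points over sites of both signs, was closest to Zbtb16 and Mir9-3hg among 29 genes, at 18.0 and 18.5 points.

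Other genes of the pathway were listed in both directions. Of their 50 sites, 94.0% were hypermethylated, near the 92.8% of all listed sites. A list of 94 genes of the TGF-β and BMP pathway was used, of which 90 were not members. The list was written with earlier results of these data known, so its shares are description alone. Of these 90 genes, 25 (27.8%) were listed, against 13.7% of all protein-coding genes. A hypermethylated site was found for 22 (24.4%), against 12.3% of protein-coding genes, and a hypomethylated site for 3 (3.33%), against 1.77%. None of the 25 listed genes had both, where 3.23% of all listed genes did. A gene far from others, or rich in CpGs, can collect more sites, which was not tested for these genes. The number of cytosines read per gene was not used here. Of the 17 sites of the members, 1 lay within 5000 bp of a start and 12 at least 100000 bp away, against 29 and 7 of the 50 sites (47 hypermethylated, 3 hypomethylated) of the 90 genes. These are counts of cytosines, some of which can share reads, and the 12 distant sites of the members made 5 clusters. The 50 sites were not counted by cluster, and the counts were not compared by a test.

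**Figure D4:**
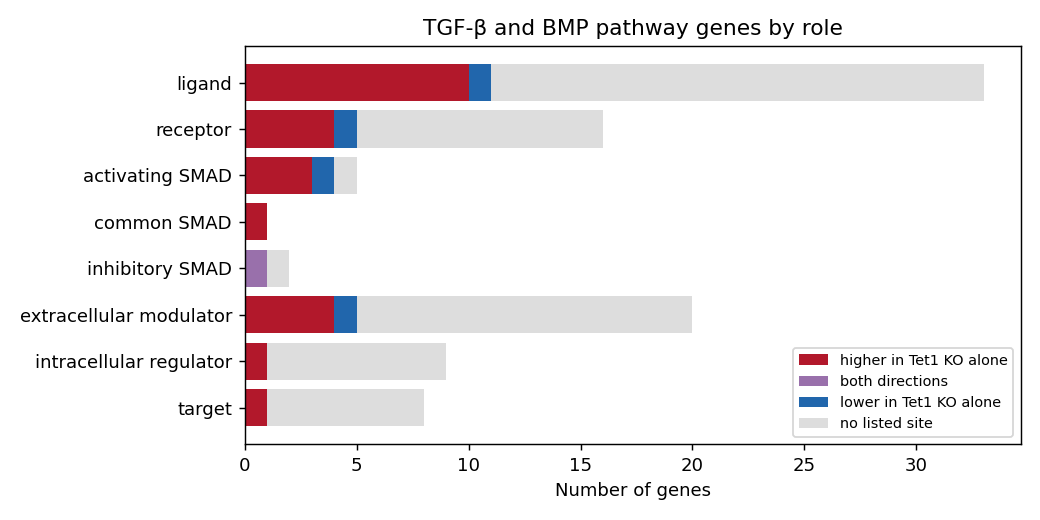
Number of genes (horizontal axis) of each role in the pathway list, members included, that had sites higher in Tet1 KO cells alone, in both directions, lower alone, or no listed site. Ligands were listed for 11 of 33 genes, SMADs of all kinds for 6 of 8, and the targets and intracellular regulators for 1 gene each. The members were picked from the lists, which raises the counts of ligands and SMADs. Without members, 10 of 32 ligands (31.2%) and 3 of 5 SMADs (60%) were listed, against 13.7% of all protein-coding genes. These shares were not tested, and the pathway list was written with earlier results of these data known.

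Among the ligands, 9 of the 32 other than Bmp7 (28.1%) had hypermethylated sites and 1 (3.12%) a hypomethylated site. Of all protein-coding genes, 12.3% and 1.77% did, and these shares were not compared by a test. Inhbb, which encodes an activin and inhibin subunit, had 8 sites 1703 to 5851 bp from its start, 7 of them in its only intron, with differences of 28.6 to 78.8 points in the authors' deposited table. It thus had as many sites as Bmp7, near the start where those of Bmp7 were mostly far. Amh, the anti-Müllerian hormone gene, had 4 sites 3332 to 3649 bp away (37.5 to 53.0 points in the authors' deposited table). Their annotations, transcript ends and an exon, named different transcripts, and the nearest start alone ties them all to Amh. Inhba, which encodes the other main activin subunit, had a single lower site 333573 bp away, at -40.3 points in the authors' deposited table.

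Receptors and co-receptors were listed for 5 of 16 genes (31.2%), against 13.7% of all protein-coding genes, and this was not tested. Rgma, a BMP co-receptor, had 2 sites at 50.0 and 46.7 points, and Acvr1b, a type I activin receptor, had 1 intronic site at 26.8 points in the authors' deposited table. Acvr2a, a type II activin receptor, was nearest to a single lower site, at -54.5 points in the authors' deposited table, which lay 1121285 bp from its start.

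Of the 8 SMAD genes, Smad2 and Smad6 had no listed site. Smad5, an activating SMAD of the BMP arm like Smad1, had 3 intergenic sites that were higher in Tet1 KO cells, at 31.5, 53.5 and 52.3 points in the authors' deposited table and 24237 to 48971 bp from its start. Smad9, the third SMAD of that arm, had 2 sites in intron 1, at 29.6 and 29.0 points in the authors' deposited table. Smad4, the partner of all activating SMADs, had 1 site in intron 1, 1758 bp from its start, at 44.7 points in the authors' deposited table. Within the BMP arm, Smad1 was thus the SMAD with a lower site, a single cytosine 108890 bp from its start. Smad5 and Smad9 had higher sites alone, as did 2910 of the 3344 listed genes.

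Among the 20 extracellular modulators, 4 (20%) had hypermethylated sites and 1 (5%) a hypomethylated site. Of all protein-coding genes, 12.3% and 1.77% did. Bmper, a secreted BMP-binding protein, had 3 sites 213357 to 213381 bp from its start, at 64.4, 66.0 and 45.1 points in the authors' deposited table, a distant cluster like those of Bmp7 and Smad3. Chrdl2, which encodes a chordin-like BMP antagonist, had 2 sites, of which the site in its 5′ UTR, 123 bp from the start, differed by 40.1 points in the authors' deposited table. Bambi, a decoy receptor, had a single lower site 34040 bp from its start, at -47.6 points in the authors' deposited table. Of the 9 intracellular regulators, 1 (11.1%) was listed. This was the SMAD corepressor gene Tgif1, with 1 promoter site at 46.3 points in the authors' deposited table. Of the 8 target genes, 1 (12.5%) was listed. This was the homeobox gene Msx1, with 2 sites at 35.2 and 34.4 points in the authors' deposited table. The BMP target genes Id1, Id2, Id3 and Id4 had 0 listed sites. Of all protein-coding genes 13.7% had a listed site, so 0 of 4 genes is near that share.

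**Figure D5:**
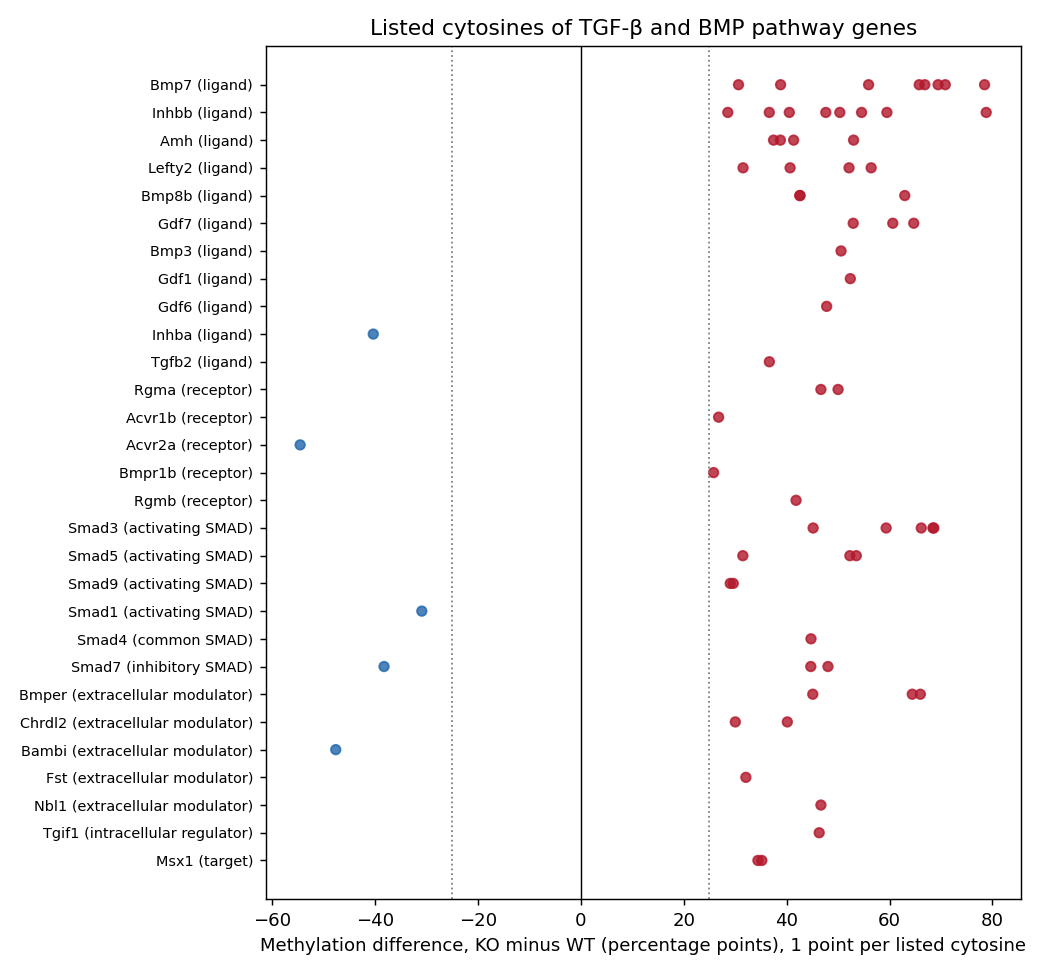
Methylation difference (KO minus WT, points; horizontal axis) of each listed cytosine of the 29 listed pathway genes (vertical axis), ordered by role; dotted lines mark 25 points. The 5 lower sites belong to 5 genes with 1 each, Inhba, Acvr2a, Smad1, Smad7 and Bambi, and Smad7 alone of the 29 has sites on both sides of 0. Sites in both directions were found for 3.23% of all listed genes.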

How the data were processed

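Genomic DNA of LSK cells was bisulfite-converted, amplified and sequenced with single-end reads of 50 bases, per the labels' protocols. The submitters' processing notes name Bismark and mm9, a mouse genome build, without saying how they were used. The sources used here do not say which program called the differences, at what coverage, or how replicates entered. The authors' deposited score for a cytosine is the difference between genotypes in percentage points, and a second deposited score is the distance in bp to the nearest start, per the file headers. The tables had 0 columns of values per sample, so no replicate error, coverage or test could be computed.

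Positions are mm9, as in the files. The distance carries a sign that follows the strand of the cytosine, so the sign was turned round on the reverse strand; it then matched the RefSeq strand for 898 of 904 sites whose side of the start could be worked out from pairs of sites (99.3%). Gene names were matched by Entrez identifier to RefSeq (GRCm38.p6), found for 99.8% of sites. Neighbouring sites with the same sign and a gap under 1000 bp were joined into clusters. The joining was tested on simulated data. The members, the pathway list (94 genes, all 94 found in RefSeq) and the alternatives were chosen with earlier results of these data known. Named pathway genes were those with a hypomethylated site and up to 3 per role with the most sites, ties by symbol; likeness genes were 2 per member. Python 3.11.15 and pandas 2.3.3 were used.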

Additional observations from a re-analysis of the deposited data

How the results depend on the processing

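No paired analysis was possible because the tables hold no values per sample, and for the same reason no replicate could be left out. The 15 hypermethylated sites of the 4 genes became 7 when clusters were counted in place of sites and 8 when sites within a read length on a strand were counted once, a count added after the data were seen. The 2 hypomethylated sites became 0 at 40 percentage points or more, as did their 2 clusters, and 1 on the forward strand alone. Of the pathway genes, 25 had a hypermethylated site and 14 had at least 2. The 5 with a hypomethylated site became 3 at 40 percentage points, 0 with at least 2 sites, and 2 within 100000 bp of the start. Clusters and read lengths join the same 15 sites, and the other alternatives keep fewer sites or genes. The other 11 counts stayed within 1.5 times the reported ones. The alternative means of Bmp7 ran from 48.9 points (clusters) to 67.9 points (40 percentage points or more), against 59.6. That of Smad3 was 55.4 points by clusters, against 61.5. The Smad7 means, and those of Smad3 at 40 percentage points and on the forward strand, could not change, as the same values were kept. All 11 alternative means stayed within an SD over sites, which can share reads, so that SD is no measure of replicate spread. Coverage, which limits every difference given here, is unknown.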
